A study of Mus musculus with 34 samples.

Results

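The cytochrome P450 genes measured on a liver array were described in mice kept at thermoneutral temperature and in mice under chronic heat stress. Members were all spots whose gene symbol begins with Cyp and a family number, together with Por, Cyb5a and Cyb5r3, which carry electrons to P450 enzymes. These were 27 genes on 30 spots, of 1856 features on 1920 spots in all: 17 genes of families 1 to 3, 5 of family 4, 2 of families 7 and above and 3 electron partners. Cyp2e1 had 3 spots and Cyb5a had 2, and these were kept apart beside the gene's mean. The array was made in house with rat oligonucleotides, so most symbols are those of rat genes: the symbols of 7 members are in use for a mouse gene as well and those of 20 are not, and which mouse transcript such a spot read is not known.

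Cytochromes P450 are heme enzymes that insert an atom of oxygen into their substrate with electrons that reach the microsomal forms from NADPH through the reductase Por, in part with the help of cytochrome b5. In liver, where many of them are made at high level, families 1 to 3 oxidise drugs, foreign compounds and steroid hormones, family 4 hydroxylates the end of fatty acid chains and of eicosanoids, and members of the higher families make bile acids and process sterols. Many are set by nuclear receptors, by growth hormone and sex, and by the position of the hepatocyte between portal tract and central vein.

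Liver RNA of each mouse was hybridised against a common pool, called universal mouse reference RNA, labelled with the other dye, and a value is the log2 ratio of mouse liver over that reference. The thermoneutral group (TN, 7 mice, 20 arrays) was fed an endophyte-free fescue diet, and the labels of its arrays give no strain, age or temperature. The heat-stress group (HS, 6 mice, 14 arrays) was held under chronic heat stress for 2 weeks; labels of 8 of its arrays give 34 °C, those of 7 a start at 27 days of age and those of 5 an end at 40 days, and 2 name the ICR strain. What the HS mice were fed, and in which batches arrays were hybridised, is not given in the sources used here, so diet, age and batch cannot be told apart from heat. Each mouse is 1 replicate with 1 to 4 arrays as technical repeats, and F203 in HS had 1 array alone. A ratio compares a gene with itself in the reference: a higher ratio for one gene than for another does not say that its transcript is more abundant.

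The liver label was checked on plasma protein genes that hepatocytes make: of 31 measured, 22 were higher than the reference in TN and 0 lower (limma, Benjamini-Hochberg adjusted p under 0.05). Their mean per mouse ran from 1.51 to 2.22 in TN and from 1.56 to 2.32 in HS, so the groups overlapped. Between HS and TN, 0 of the 31 were called. At an unadjusted p under 0.05 there were 2, beside 2.42% of all features. These were Cpn1, with a difference HS minus TN of 0.72, and Apoa1, with −0.93. Of other cell types, the lists held 4 measured macrophage genes, 2 lymphocyte genes, 3 stellate cell or matrix genes, 1 bile duct gene, 1 red cell gene, 2 pancreas or fat genes and 0 of 9 endothelial genes. None of them was called between HS and TN; at an unadjusted p under 0.05 there were also 0. The red cell gene Hba-a1 ran from 0.15 to 1.79 in TN and from 0.47 to 2.67 in HS. The spread of ratios within an array (median absolute deviation) ran from 0.62 to 2.46, and the 2 widest arrays were the Cy5 array of TN mouse M244 and the Cy3 array of HS mouse F241. In bulk tissue, fewer cells of a type and less RNA per cell cannot be told apart.

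Against the reference, P450 genes stood on the high side in liver. The tests against the reference set the mean ratio of a group against 0, the array median. They weigh it by the spread of the mice around their group means. The spread of the reference pool itself is not in them. In TN, 15 of the 27 members were higher than the reference and 0 were lower (limma, adjusted p under 0.05), where 19.8% of all features were higher and 19.7% lower; of the named genes alone 27.1% were higher. The members that were higher were 11 of 17 in families 1 to 3, 2 of 5 in family 4, 1 of 2 in families 7 and above and 1 of 3 electron partners. The median ratio over the 27 members was 0.63, beside 0.02 over all features. In HS, 18 members were higher and 0 lower, where 21.9% of all features and 30.1% of named genes were higher and 18.4% of features were lower. By spot, 18 of 30 were higher in TN, beside 21.0% of all spots. The counts in TN and HS do not show a difference between the groups, which is tested further on.

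**Figure D1:**
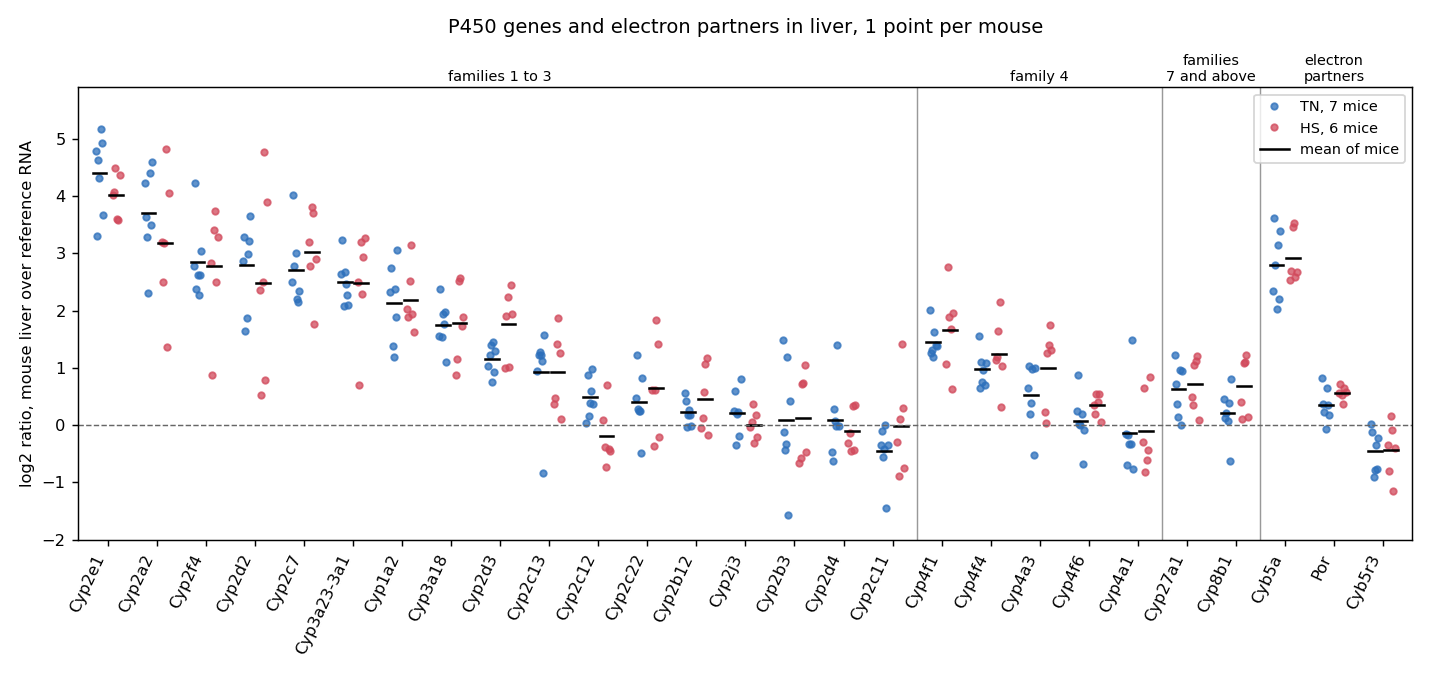
Log2 ratio of mouse liver over reference RNA (y axis) for each of the 27 members (x axis, grouped by family class and ordered by the TN mean), with 1 point per mouse, blue for TN and red for HS, and a bar at the mean of the mice. Cyp2e1 lies highest in TN at a mean of 4.40 and Cyp2c11 lowest at −0.45, and the TN and HS points of every gene overlap.

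Cyp2e1, which oxidises ethanol, acetone and small solvents, had the highest ratio of all members. Over its 3 spots it was lowest at 3.30, median 4.62 and highest at 5.17 in the TN mice, and lowest at 3.59, median 4.05 and highest at 4.50 in the HS mice. All 13 mice were thus far above the reference, and the HS range lay inside the TN range. The means were 4.40 ± 0.69 (SD, n = 7) and 4.03 ± 0.38 (SD, n = 6), the first a 21.1-fold ratio over the reference (limma with Benjamini-Hochberg adjustment, adjusted p = 1.42e-13). Of all features, 99.6% had a lower TN mean.

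Cyp2a2, named for a rat steroid hydroxylase, followed. Its lowest, median and highest TN mice were at 2.31, 3.63 and 4.60, and its HS mice at 1.37, 3.19 and 4.82. The HS mice spread over both sides of the TN range. The TN mean was 3.71 ± 0.79 (SD, n = 7; adjusted p = 5.63e-10 by limma) and the HS mean 3.19 ± 1.20 (SD, n = 6).

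Cyp2f4, of a subfamily known from lung, where it activates naphthalene, came next. It was lowest at 2.27, median 2.63 and highest at 4.22 in TN, and lowest at 0.88, median 3.06 and highest at 3.74 in HS. HS mouse F222, at 0.88, lay below all other mice, and TN mouse M211 above them. The means were 2.85 ± 0.66 (SD, n = 7; adjusted p = 5.97e-09 by limma) and 2.78 ± 1.03 (SD, n = 6).

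The other drug-oxidising members fell in between. Cyp1a2, which oxidises caffeine and aromatic amines, had a mean of 2.14 in TN and 2.19 in HS. Among the Cyp2d genes, Cyp2d2 was at 2.79 in TN and 2.47 in HS, with the widest spread of any member in HS (SD 1.67): F222 and F241 were at 0.52 and 0.79, and F203 at 4.78. Cyp2d4, a form also known from brain, was at 0.09 in TN and −0.11 in HS. Both Cyp3a genes, whose products take a broad range of drugs and steroids, stood above the reference in all mice. Cyp3a23-3a1 was at 2.50 in TN and 2.48 in HS. Cyp3a18 was at 1.75 in TN and 1.79 in HS. Cyp2j3, whose product makes epoxides of arachidonic acid, was at 0.22 in TN and 0.01 in HS and was not called in either group.

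The 5 Cyp2c genes, which in the rat include forms set by growth hormone and sex, covered most of the members' range. Cyp2c7 was at 2.71 in TN and 3.03 in HS, and Cyp2c13 at 0.93 and 0.92. Cyp2c22, which acts on retinoic acid, was at 0.40 in TN and 0.65 in HS, called against the reference in HS alone (adjusted p = 0.047 by limma). The same held for Cyp4a3, Cyp8b1 and Por (adjusted p = 0.0015, 0.012 and 0.011 in HS by limma). Cyp2c12 was called in TN alone (adjusted p = 0.044 by limma). The difference between both groups was not called for any of these genes. Cyp2c11, the male form of the rat, was the lowest member in TN: its lowest, median and highest mice were at −1.45, −0.34 and 0.01 in TN and at −0.89, −0.09 and 1.42 in HS. Its TN mean was −0.45 ± 0.48 (SD, n = 7) and its HS mean −0.02 ± 0.84 (SD, n = 6), and limma called neither group against the reference (adjusted p = 0.136 and 0.963). In the Cyp2b genes, of a subfamily best known for forms induced by phenobarbital, Cyp2b12 was at 0.22 in TN and 0.45 in HS. Cyp2b3 was at 0.10 in TN and 0.13 in HS.

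In family 4, Cyp4f1 and Cyp4f4, of the Cyp4f subfamily of leukotriene and arachidonic acid hydroxylases, were the highest. Cyp4f1 was at 1.45 in TN and 1.66 in HS, and above 0 in all mice. Cyp4f4 was at 0.97 in TN and 1.25 in HS, likewise above 0 in all mice. Cyp4f6, of the same subfamily, was at 0.08 in TN and 0.35 in HS, below Cyp4a3 at 0.53 and 1.00. Cyp4a1, the fatty acid hydroxylase known as a target of the receptor PPAR alpha, had its lowest, median and highest TN mice at −0.77, −0.32 and 1.48 and its HS mice at −0.81, −0.36 and 0.84. Its means of −0.14 ± 0.76 (SD, n = 7) and −0.11 ± 0.69 (SD, n = 6) were not called.

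Of the electron partners, Cyb5r3, which reduces cytochrome b5 with NADH, was near the bottom of the members. Its lowest, median and highest mice were at −0.91, −0.35 and 0.02 in TN and at −1.16, −0.37 and 0.16 in HS. Its TN mean of −0.45 ± 0.37 (SD, n = 7) missed the threshold (adjusted p = 0.0608 by limma), as did its HS mean of −0.44 ± 0.48 (SD, n = 6; adjusted p = 0.0927).

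Of the 15 members called higher in TN, 12 were called under all 28 settings of processing and mouse selection, the main one included. Cyp2c13 was called under 27, Cyp27a1 under 26 and Cyp2c12 under 14. Repeat arrays of the same mouse differed by a median SD of 0.84 over the 30 spots, from 0.40 to 1.48. The difference between dyes was not taken out of this SD. On 22 of the 30 spots the mean was higher where the mouse RNA was in Cy3 than where it was in Cy5, which the dye term of the fit takes up. On 10 spots all 34 arrays were above 0.

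Between HS and TN, 0 of the 27 members passed the threshold (limma, lowest adjusted p = 0.999), as did 0% of all features. At an unadjusted p under 0.05 there were 2 members, Cyp2c12 and Cyp2d3, of opposite sign, beside 2.42% of all features. For 0 members did the groups not overlap, beside 0% of all features. The difference HS minus TN was positive for 18 of 27 members, beside 58.9% of named genes and 48.3% of all features. It was positive for all 5 genes of family 4, both of families 7 and above and all 3 electron partners, and for 8 of 17 in families 1 to 3. The median difference was 0.05. The 95% confidence interval lay within a 2-fold change in either direction for 18 of 27 members, beside 75.2% of all features. It reached past 2-fold for the other 9: Cyp2a2, Cyp2c7, Cyp2c11, Cyp2c12, Cyp2d2, Cyp2d3, Cyp2e1, Cyp4a3 and Cyp8b1. Across the 28 settings 9 members kept the sign of their difference: Cyp2a2, Cyp2c11, Cyp2c12, Cyp2d3, Cyp2j3, Cyp4f4, Cyp4f6, Cyp8b1 and Por. Some of these settings cannot change a member's difference, as listed further on.

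**Figure D2:**
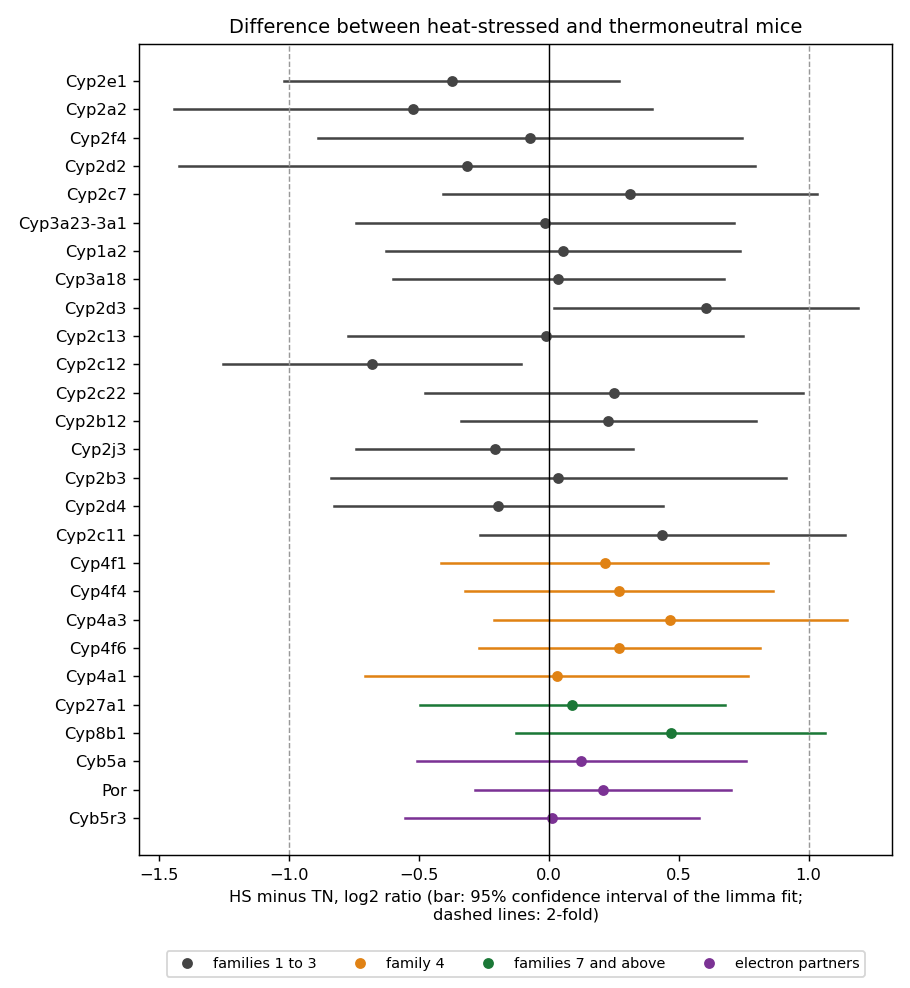
Difference HS minus TN in log2 ratio (x axis) for each of the 27 members (y axis), as a point with its 95% confidence interval from limma, coloured by family class; dashed lines mark 2-fold. The intervals of Cyp2c12 and Cyp2d3 leave out 0, without adjustment for multiple tests, and those of the other 25 members hold it.

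Cyp2c12, the female form of the rat, had the smallest p of families 1 to 3. By mouse, the lowest, median and highest values were 0.04, 0.39 and 0.98 in TN and at −0.73, −0.39 and 0.70 in HS. All 7 TN mice were above 0, 5 of 6 HS mice lay below the TN mean, and F203 was the exception. The TN mean was 0.48 ± 0.35 (SD, n = 7) and the HS mean −0.20 ± 0.51 (SD, n = 6). The difference was −0.68 (standard error 0.28; 95% confidence interval −1.25 to −0.11; limma, unadjusted p = 0.0218, adjusted p = 0.999). It was −1.28 on the arrays with mouse RNA in Cy5 and −0.11 on those with it in Cy3, and adjusted p ran from 0.83 to 1.00 over the 28 settings.

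Cyp2d3, of the same subfamily as Cyp2d2 and Cyp2d4, had a difference of the opposite sign. Its lowest, median and highest mice were at 0.75, 1.22 and 1.44 in TN and at 0.99, 1.93 and 2.46 in HS. The 4 HS mice M242, F222, M256 and F241 lay above all TN mice, and M233 and F203 within their range. The means were 1.15 ± 0.26 (SD, n = 7) and 1.76 ± 0.62 (SD, n = 6). The difference was 0.61 (standard error 0.28; 95% confidence interval 0.02 to 1.19; limma, unadjusted p = 0.0433, adjusted p = 0.999), a 1.52-fold ratio. It was 0.22 on Cy5 arrays and 1.28 on Cy3 arrays, and 0.24 with all arrays scaled to the same spread; adjusted p ran from 0.782 to 1.00 over the settings. For Cyp2d2 the difference was −0.32 with an interval of −1.42 to 0.79.

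In family 4 the smallest p belonged to Cyp4a3, a fatty acid hydroxylase. By mouse, the lowest, median and highest values were −0.52, 0.65 and 1.04 in TN and at 0.04, 1.29 and 1.74 in HS. Of the HS mice, 4 lay above all TN mice, and F222 and M233 were at 0.04 and 0.22. The means were 0.53 ± 0.57 (SD, n = 7) and 1.00 ± 0.69 (SD, n = 6). The difference was 0.47 (standard error 0.33; 95% confidence interval −0.21 to 1.15; limma, unadjusted p = 0.169, adjusted p = 0.999). On Cy5 arrays it was −0.15 and on Cy3 arrays 1.14. The sign differed between these subsets, which differ in mice too, since F203 had a Cy3 array only; the cause was not tested.

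Of the sterol genes, Cyp8b1, the hydroxylase that sets how much cholic acid is made, had the smaller p. Its lowest, median and highest mice were at −0.62, 0.22 and 0.81 in TN and at 0.11, 0.75 and 1.22 in HS. The HS mice F241, F203 and M242 lay above all TN mice, and the others among them. The means were 0.21 ± 0.44 (SD, n = 7) and 0.68 ± 0.51 (SD, n = 6). The difference was 0.47 (standard error 0.29; 95% confidence interval −0.13 to 1.06; limma, unadjusted p = 0.116, adjusted p = 0.999), and it ran from 0.17 to 0.65 over the 28 settings. Cyp27a1, a mitochondrial hydroxylase that starts the alternative route to bile acids, was at 0.63 in TN and 0.72 in HS, and above 0 in all mice.

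Por, the reductase on which microsomal P450 enzymes depend, had the smallest p of the electron partners. By mouse, the lowest, median and highest values were −0.07, 0.35 and 0.82 in TN and at 0.37, 0.58 and 0.71 in HS. The HS mice were close together, all 6 above the TN mean, and inside the TN range. The means were 0.36 ± 0.30 (SD, n = 7) and 0.57 ± 0.12 (SD, n = 6). The difference was 0.21 (standard error 0.24; 95% confidence interval −0.28 to 0.70; limma, unadjusted p = 0.391, adjusted p = 0.999).

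The mice of a group differed more from each other in HS than in TN for 17 of 27 members (63%), by the SD over mice, beside 904 of all 1856 features (48.7%). The median SD between mice over the members was 0.48 in TN and 0.62 in HS, beside 0.55 and 0.53 over all features. This difference in spread was not tested, and F203, the HS mouse with 1 array, was the highest of its group for several members, among them Cyp2d2, Cyp2a2, Cyp2c11 and Cyp2c13.

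Separate spots of a gene gave a check within the array. Of the Cyp2e1 spots, spot 179 had a mean of 4.28 ± 0.78 in TN (SD, n = 7) and 4.29 ± 0.64 in HS (SD, n = 6), and spot 399 had 4.24 ± 0.84 and 4.35 ± 0.40. Spot 390 had 4.68 ± 0.52 in TN and 3.44 ± 1.65 in HS. Its lowest, median and highest mice were at 3.86, 4.77 and 5.22 in TN and at 0.58, 4.15 and 4.87 in HS. Of the 3 spots, only spot 390 was low in HS, through F203 at 0.58 and F241 at 2.38, while the other 4 HS mice lay within the TN range.

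The difference HS minus TN was −1.23 at spot 390 (standard error 0.51; 95% confidence interval −2.28 to −0.18; limma over all spots, unadjusted p = 0.0233, adjusted p = 0.999), 0.01 at spot 179 and 0.10 at spot 399. Of all spots, 0% were called and 2.40% had an unadjusted p under 0.05. On the single array of F203 the turned ratios were 5.55 at Cyp2e1 spot 179, 5.39 at spot 399 and 1.00 at spot 390. On the Cy3 array of F241 they were 2.95, 3.89 and −0.34, and on its Cy5 array 4.99, 4.94 and 5.09. Without F203 the difference at spot 390 was −0.66, on Cy5 arrays alone −0.09, and without both widest arrays −0.53. For the mean of the spots, the Cyp2e1 difference of −0.37 (standard error 0.31; 95% confidence interval −1.02 to 0.27) became 0.09 without both widest arrays, −0.02 with the median of its spots in place of their mean, and −0.94 with all arrays scaled to the same spread. The interaction of heat with the mouse letter, described further on, was −2.30 at spot 390 (limma, unadjusted p = 0.0162, adjusted p = 0.997).

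**Figure D3:**
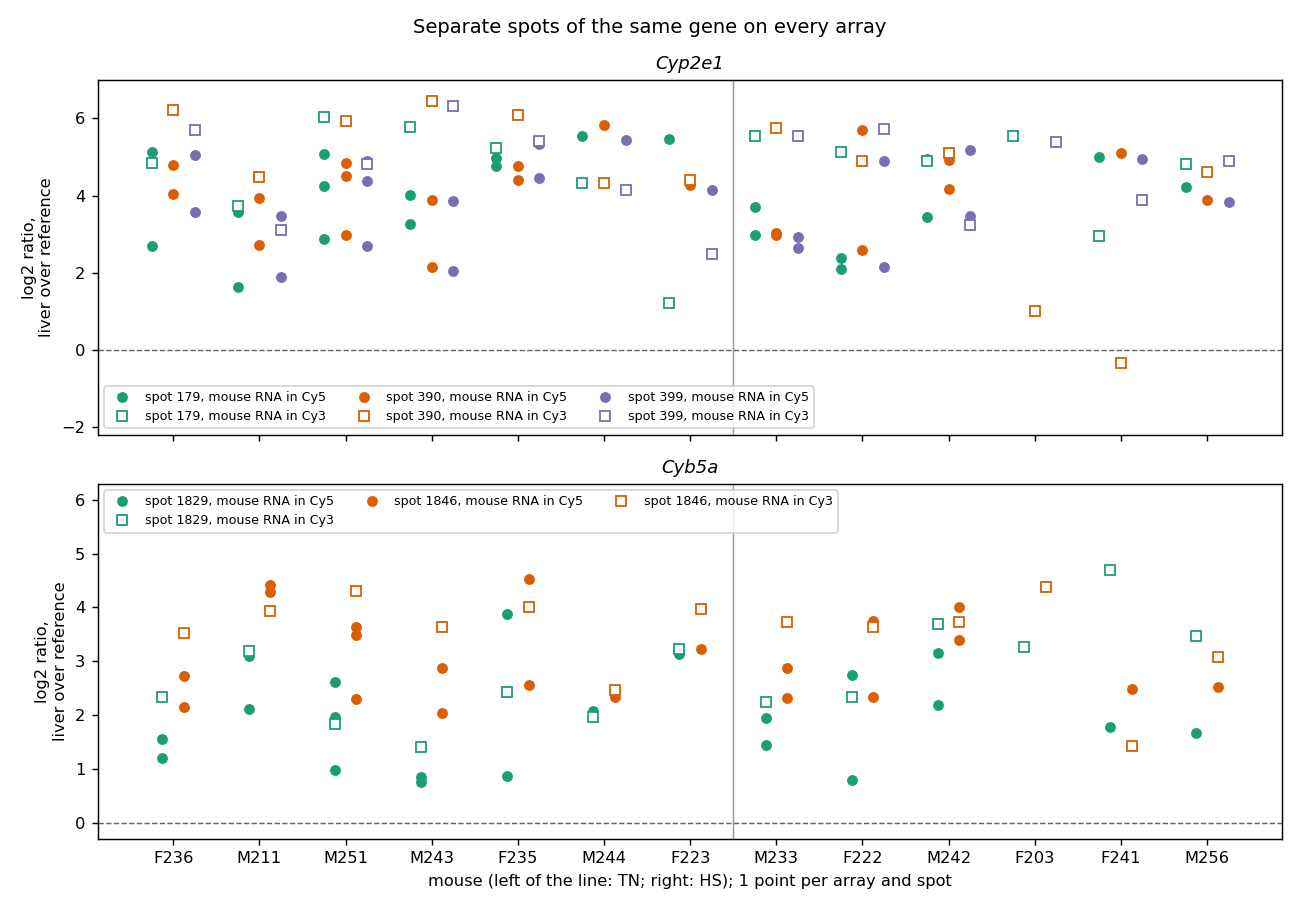
Log2 ratio of mouse liver over reference (y axis) at each spot of Cyp2e1 (upper panel, 3 spots) and Cyb5a (lower panel, 2 spots) on every array, by mouse (x axis, TN left of the line and HS right), with filled circles where the mouse RNA was in Cy5 and open squares where it was in Cy3. Spot 390 of Cyp2e1 falls to 1.00 on the array of F203 and to −0.34 on the Cy3 array of F241, where both other spots stay between 2.95 and 5.55.

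Across the 13 mice, spots 179 and 399 of Cyp2e1 went together, with Pearson's r = 0.79 (permutation p = 0.00126, adjusted over 23 pairs 0.0138) and Spearman's rho = 0.67 (permutation p = 0.0147, adjusted 0.0844). Without M211 and F222, the mice farthest from the median of spot 179, r was 0.82. It was 0.93 within TN and 0.44 within HS. For spot 390 r was near 0 over all mice: −0.09 with spot 179 (permutation p = 0.794; rho 0.30, permutation p = 0.317; adjusted 0.929 and 0.56) and −0.06 with spot 399 (permutation p = 0.841; rho 0.34, permutation p = 0.264; adjusted 0.929 and 0.56). Within TN these were 0.82 and 0.94, and within HS −0.55 and −0.80. Without F203 and F241, the mice farthest from the median of spot 390, its r with spot 399 was 0.84. Without M211 and F222, the mice farthest from the median of spot 179, the r of spot 390 with spot 179 was −0.10. F203 and F241 were still in that value, so it cannot be set against the 0.84. The r with spot 179 without F203 and F241 was not computed.

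Cyb5a, the microsomal cytochrome b5, was read by 2 spots of unlike ratio. Its gene mean was lowest at 2.03, median 2.79 and highest at 3.61 in TN, and lowest at 2.53, median 2.69 and highest at 3.53 in HS, with means of 2.79 ± 0.62 (SD, n = 7; adjusted p = 1.44e-10 by limma) and 2.91 ± 0.45 (SD, n = 6). The HS range lay inside the TN range. Spot 1829 had a mean of 2.23 ± 0.70 in TN and 2.65 ± 0.53 in HS, and spot 1846 had 3.35 ± 0.65 and 3.18 ± 0.77. The difference HS minus TN was 0.43 (standard error 0.33) at spot 1829 and −0.18 (standard error 0.35) at spot 1846, so the spots differed in sign and neither was called.

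Over the mice both Cyb5a spots had r = 0.28 (permutation p = 0.356; rho 0.32, permutation p = 0.289; adjusted 0.545 and 0.56). Without M243 and F241, the mice farthest from the median of spot 1829, r was 0.67. It was 0.68 within TN and −0.06 within HS. In F241, spot 1829 was the higher one on the Cy3 array, at 4.69 against 1.43 for Cyb5a spot 1846, and the lower one on the Cy5 array, at 1.77 against 2.48.

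Of 19 pairs of genes in the same subfamily, 14 had a positive correlation across mice, and 3 passed the threshold on Pearson's r after adjustment over 23 pairs, all among Cyp2c11, Cyp2c13 and Cyp2c22. Of the 412 pairs of member spots from different subfamilies, the electron partners included, 271 were positive (65.8%, against 73.7% of the 19), and of all pairs of features 52.5%. The median r was 0.30 within subfamilies, 0.18 between them and 0.04 over all features. An r above 0.75, a limit set after the values were seen, was found in 15.8% of the pairs within subfamilies, 2.18% of those between and 4.85% of all pairs of features. All these pairs share the same mice and arrays, and no test compared the shares. Related genes can share signal at a probe, and whether these do was not tested. Cyp2c11 and Cyp2c22 had r = 0.89 (permutation p = 4e-05, adjusted 0.00092) and rho = 0.81 (permutation p = 0.00131, adjusted 0.0301). Without F203 and M244 r was 0.80, and it was 0.76 within TN and 0.95 within HS.

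Cyp2c11 and Cyp2c13 had r = 0.79 (permutation p = 0.0024, adjusted 0.0138) and rho = 0.60 (permutation p = 0.0331, adjusted 0.117), and r = 0.59 without F203 and M244, 0.87 within TN and 0.91 within HS. Cyp2c13 and Cyp2c22 had r = 0.75 (permutation p = 0.00237, adjusted 0.0138) and rho = 0.69 (permutation p = 0.0108, adjusted 0.0827), and r = 0.63 without M244 and M256, 0.77 within TN and 0.84 within HS. The other Cyp2c genes gave lower values: the r of Cyp2c12 with Cyp2c11 was 0.03 (permutation p = 0.929; rho −0.04, permutation p = 0.892; r 0.08 without F203 and M244), with an adjusted p of 0.929, and that of Cyp2c7 with Cyp2c11 was 0.38 (permutation p = 0.204; rho 0.25, permutation p = 0.416; r −0.07 without F203 and M244), with an adjusted p of 0.469.

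Cyp4a1 and Cyp4a3, both fatty acid hydroxylases of family 4, had a negative correlation. Pearson's r was −0.59 (permutation p = 0.031, adjusted 0.119) and rho −0.59 (permutation p = 0.0355, adjusted 0.117), which missed the threshold over 23 pairs. Without M244 and M256 r was −0.69, and it was −0.91 within TN and −0.38 within HS. M244 had the highest Cyp4a1 of all mice, at 1.48, and the lowest Cyp4a3, at −0.52.

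**Figure D4:**
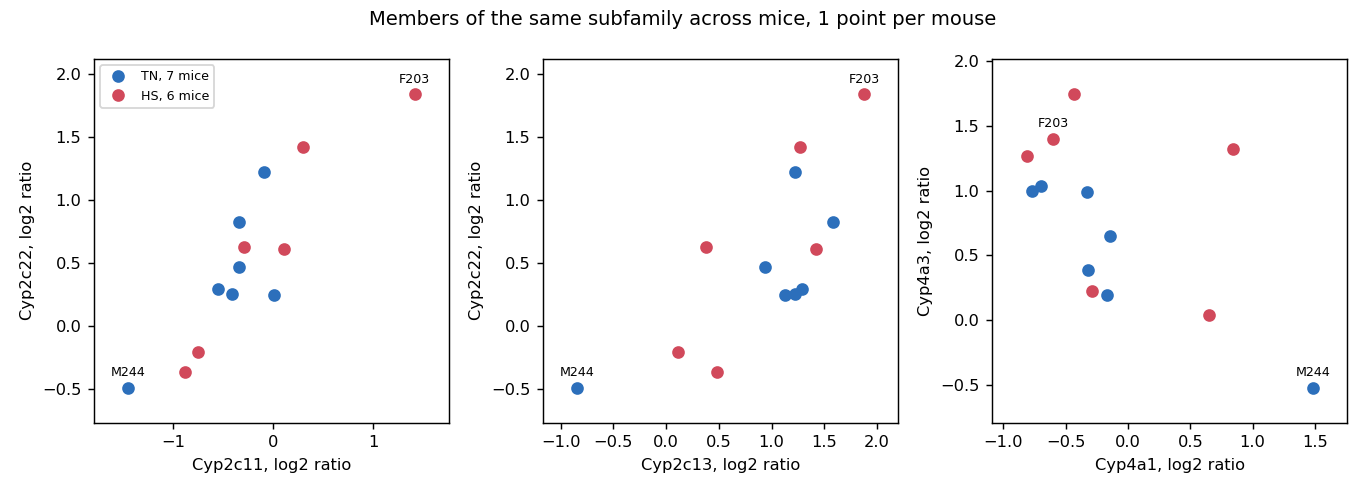
Log2 ratios of pairs of genes of the same subfamily, 1 point per mouse, blue for TN and red for HS: Cyp2c22 against Cyp2c11 (left), Cyp2c22 against Cyp2c13 (middle) and Cyp4a3 against Cyp4a1 (right). In both Cyp2c panels M244 lies lowest and F203 highest, and in the Cyp4a panel M244 lies at the lower right.

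The mouse numbers begin with F (6 mice) or M (7 mice). Sex is given for a few mice, female for F222, male for M233 and female for M242, so the letter was used as a letter. For the letter, with heat in the fit, 0 members passed the threshold (limma, lowest adjusted p of a member 0.89), beside 0.0539% of all features, and 1 member had an unadjusted p under 0.05, beside 3.77% of all features. This was Cyp2b3. In TN its 3 F mice ran from 0.42 to 1.49 and its 4 M mice from −1.57 to −0.11, so that the letters did not overlap. In HS the F mice ran from −0.57 to 1.05 and the M mice from −0.67 to 0.71; F222 lay among the M mice and M242 among the F mice. Over both groups the F mice were lowest at −0.57, median 0.89 and highest at 1.49, and the M mice lowest at −1.57, median −0.43 and highest at 0.71. The difference F minus M was 1.13 (standard error 0.36; 95% confidence interval 0.38 to 1.88; limma, unadjusted p = 0.0048, adjusted p = 0.89). It ran from 0.79 to 1.42 over the 28 settings, with adjusted p from 0.101 to 1.00, and was 1.37 without M242 and 1.42 without F222.

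The 6 members from lists of P450 genes known as sex-biased in rat or mouse liver gave 0 calls for the letter, and 0 at an unadjusted p under 0.05. Of 4 measured male-biased forms (Cyp2c11, Cyp2c13, Cyp2a2 and Cyp3a18), 3 had a higher mean in F than in M mice. The difference F minus M was also positive for 19 of 27 members, 657 of 1019 named genes and 1014 of 1856 features. Of 2 measured female-biased forms, Cyp2c7 differed by −0.59 (F minus M) and Cyp2c12 by 0.02. These symbols are those of rat genes, and the bias of a mouse transcript read by such a spot can be another one.

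The heat difference was also compared between letters. For this interaction 0 members were called (limma, lowest adjusted p 0.998), beside 0% of all features, and 1 member had an unadjusted p under 0.05, Cyp2a2, beside 1.19% of all features. In TN its F mice ran from 4.23 to 4.60 and its M mice from 2.31 to 3.63, without overlap. In HS the F mice ran from 1.37 to 4.82 and the M mice from 3.18 to 4.05. The HS F mice thus held both the lowest and the highest value of all mice, F241 and F203. The interaction was −1.81 (standard error 0.83; 95% confidence interval −3.52 to −0.09; limma, unadjusted p = 0.0401, adjusted p = 0.998); without F203 it was −2.77, and without F241 −1.10. Cyp2b3 and Cyp2a2 were not alone in holding the letters apart in TN. For Cyp8b1 the TN F mice ran from 0.39 to 0.81 and the TN M mice from −0.62 to 0.22. For Cyp27a1 they ran from 0.945 to 1.23 and from 0.005 to 0.72. How many of all features do so was not counted.

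**Figure D5:**
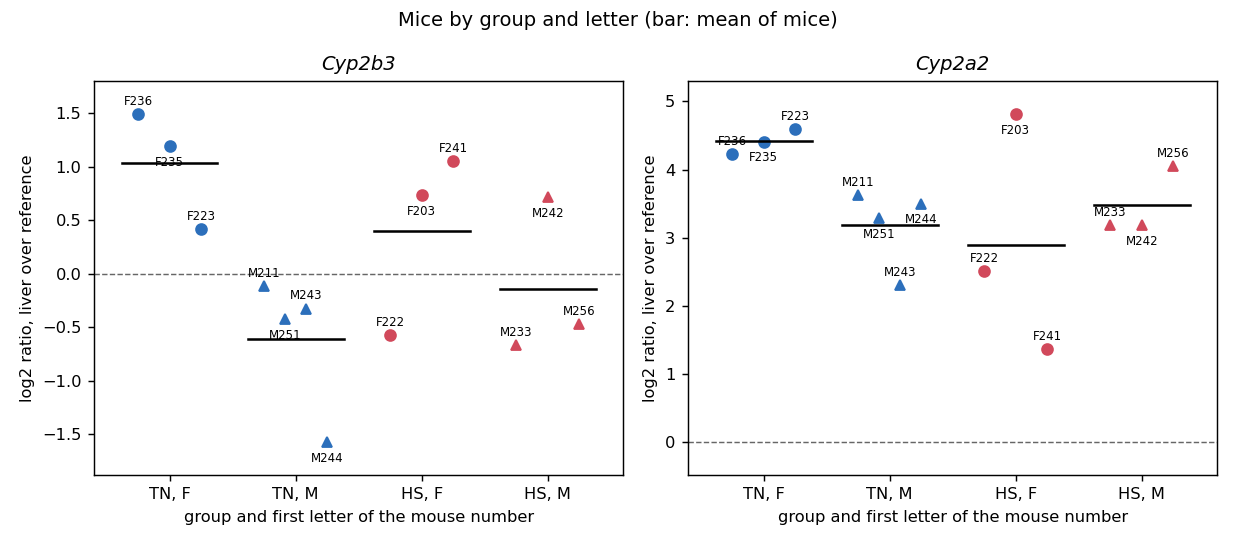
Log2 ratio of mouse liver over reference (y axis) of Cyp2b3 (left) and Cyp2a2 (right), 1 point per mouse, by group and first letter of the mouse number (x axis; circles for F, triangles for M; bar at the mean). In TN the F mice lie above all M mice for both genes, from 0.42 for Cyp2b3 and from 4.23 for Cyp2a2, and in HS the letters overlap. Cyp8b1 and Cyp27a1, which are not drawn, had the same order of letters in TN.

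Genes outside the family that serve or set P450 enzymes were counted in the same fit, and 0 of them were called between HS and TN in any list. Beside the counts of every list, 58.9% of named genes had a positive difference. An unadjusted p under 0.05 by limma was found for 2.42% of all features. Of the 11 measured nuclear receptors and other transcription factors of P450 genes, 7 had a positive difference and 0 had an unadjusted p under 0.05. The smallest p belonged to Nr5a2, which drives bile acid genes, with −0.65 (standard error 0.34; adjusted p = 0.999 by limma), and to Tef, a factor of the circadian output, with 0.51 (standard error 0.27). Of 6 genes of heme synthesis and breakdown, 3 were positive and 1 had an unadjusted p under 0.05: Abcb6, a porphyrin transporter, with −0.76 (standard error 0.28; unadjusted p = 0.0118 and adjusted p = 0.999 by limma). Blvra, which turns biliverdin into bilirubin, differed by 0.39.

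Of 8 measured non-P450 enzymes of drug oxidation and hydrolysis, 7 were positive, beside 58.9% of named genes. Of these enzymes 0 had an unadjusted p under 0.05. Their smallest p belonged to the aldehyde dehydrogenases Aldh3a2 at 0.33 and Aldh1a1 at 0.27. The wider list of electron transfer partners had 5 measured genes, of which 4 were positive and 0 had an unadjusted p under 0.05. Beside Por, the smallest p there was that of Fdx1, the mitochondrial ferredoxin, at −0.25.

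Among 15 genes of bile acid synthesis and transport, 10 were positive, with Abcc2, a canalicular exporter, at −0.52 and Slc27a5, the bile acid CoA ligase, at 0.59. Among 10 cholesterol synthesis genes, 7 were positive, with Msmo1, a sterol methyl oxidase, at 0.59 and Idi1, an isomerase of isoprenoid synthesis, at −0.33. Among 15 genes of fatty acid oxidation set by PPAR alpha, 6 were positive, with Ehhadh, the peroxisomal bifunctional enzyme, at 0.41 and Fabp1, the liver fatty acid binding protein, at −0.70. In these lists 0 genes had an unadjusted p under 0.05.

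Genes that mark the position in the lobule were counted too. Of 5 pericentral genes 3 were positive, with Aldh3a2 at 0.33 and Gstm1, a glutathione transferase, at −0.18. Of 11 periportal genes 7 were positive, with Arg1, the arginase of the urea cycle, at 0.54 and Fbp1, of gluconeogenesis, at −0.31. Both lists had 0 genes at an unadjusted p under 0.05.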

How the data were processed

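The members and gene lists were chosen with earlier results of these data known. The deposited values, per the labels and series text, are Cy5 over Cy3 log ratios, taken as log2; how the authors corrected background, normalized and filtered them, and the log base, is not given in the sources used here. Natural logarithms could not be told apart from log2, and sizes would then be on that scale. Direction was checked on hepatocyte genes: 22 to 29 of 31 were above 0 on each array once ratios were turned to mouse over reference.

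Without intensities no filter on dim spots was possible, and the number of arrays and mice limits the precision. Symbols came from the platform annotation, which gave 1 symbol for 1083 of 1920 spots. None of the members' values was missing.

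Arrays were centred on their median. Per feature, least squares on 13 mouse terms and a dye term gave 1 ratio per mouse. Spots of a gene were averaged, and also fitted alone. limma 3.58.1 (lmFit, eBayes) in R 4.3.3 compared groups, two-sided, over all 1856 features or 1920 spots with Benjamini-Hochberg adjustment at 0.05; ratios against the reference were tested against 0, the array median. The letter was tested in a fit with heat and letter, and the interaction in a further fit with heat, letter and their interaction. Correlations across mice used 100000 permutations. The procedure was tested on simulated data. Their repeat arrays varied less than those at any member spot, so that test does not cover the spread of repeat arrays seen here. Alternatives changed centring, scaling, dye, weights, model level, summary and the mice or features used.

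All members are named. Those with an unadjusted p under 0.05, several spots, the 3 highest and 3 lowest TN means or the smallest heat p of a class are given by mouse; list genes are the 2 of smallest heat p.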

Additional observations from a re-analysis of the deposited data

Results flagged for a closer look

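In 64 groups of mice (members and spots, in TN or HS), 4 held a mouse far from the others, where chance gives about 1 in 20. In TN, M244 was at −1.45 for Cyp2c11 (the nearest mouse at −0.56), at −0.84 for Cyp2c13 (nearest 0.94) and at 1.48 for Cyp4a1 (nearest −0.15). M244 had the array of widest spread, with a median absolute deviation of 2.46; its part in these values was not tested. M211 was at 4.22 for Cyp2f4 (nearest 3.04).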

How the results depend on the processing

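No member or spot was called between HS and TN under any setting; the lowest adjusted p by limma over the 27 alternatives for members was 0.782. Some alternatives cannot change the size of a member's ratio or difference. These were a robust variance estimate, features with values on every array, and named genes alone. The median of spots can change it only for Cyp2e1. Of 729 comparisons of a member's difference with an alternative, these included, 90 had the opposite sign. For the separate spots of Cyp2e1 and Cyb5a it was 19 of 110. On Cy3 arrays alone these were Cyp2c13 0.65, Cyp2f4 0.063, Cyp3a18 −0.49, Cyp3a23-3a1 0.25, Cyp4a1 −0.46, Cyp4f1 −0.17 and Cyb5r3 −0.033. On Cy5 arrays alone they were Cyp1a2 −0.35, Cyp2b12 −0.031, Cyp2b3 −0.45, Cyp2c22 −0.24, Cyp2d4 0.10, Cyp4a3 −0.15, Cyp27a1 −0.13, Cyb5a −0.16, Cyp2e1 spots 179 (−0.50) and 399 (−0.18) and Cyb5a spot 1829 (−0.12). With array quality weights they were Cyp2b3 −0.48, Cyp2f4 0.068, Cyp3a18 −0.11, Cyp27a1 −0.011 and Cyp2e1 spots 179 (−0.20) and 399 (−0.31). An array-level fit gave Cyp2b3 −0.081, Cyp3a18 −0.067 and Cyp2e1 spot 179 −0.12. Arrays scaled to the same spread gave Cyp1a2 −0.23, Cyp2b3 −0.18, Cyp2c7 −0.10, Cyp3a18 −0.22, Cyp27a1 −0.051, Cyb5a −0.36, Cyp2e1 spots 179 (−0.53) and 399 (−0.56) and Cyb5a spot 1829 (−0.028). With the letter in the fit Cyp2b3 was −0.044 and Cyp3a23-3a1 0.026. Without centring Cyp1a2 was −0.023, Cyp2b3 −0.040, Cyp3a18 −0.040, Cyp4a1 −0.047, Cyb5r3 −0.065 and Cyp2e1 spot 179 −0.070. Plain means gave Cyp3a23-3a1 0.021 and Cyb5r3 −0.0088. Quantile normalization gave Cyp1a2 −0.038, Cyp2b3 −0.13 and Cyp3a18 −0.10. Without the 2 widest arrays Cyp2b3 was −0.074, Cyp2c22 −0.025, Cyp2d2 0.15, Cyp2e1 0.086, Cyp2f4 0.27, Cyp3a18 −0.072 and Cyb5r3 −0.018; for spots this alternative was added after seeing the data. The cause of these changes was not tested.

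Leaving out each mouse in turn, the difference ran from −0.17 to 0.36 for Cyp3a23-3a1, −0.31 to 0.13 for Cyp2c13, −0.27 to 0.35 for Cyp2f4, −0.16 to 0.29 for Cyp4a1, −0.14 to 0.21 for Cyp1a2, −0.25 to 0.27 for Cyp2b3, −0.095 to 0.15 for Cyb5r3, −0.31 to 0.022 for Cyp2d4, −0.022 to 0.22 for Cyp27a1, −0.12 to 0.22 for Cyp3a18, −0.78 to 0.12 for Cyp2d2 and −0.033 to 0.42 for Cyp4f1. It ran from −0.21 to 0.24 at Cyp2e1 spot 179, −0.12 to 0.26 at spot 399 and −0.37 to 0.054 at Cyb5a spot 1846. F203 was the only mouse with 1 array, so a fit without such mice is the fit without F203.

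Against the reference in TN, 10 of 729 comparisons changed sign: Cyp2b3 −0.044 and Cyp4a1 0.030 on Cy3 arrays, Cyp2c22 −0.061 and Cyp4f6 −0.22 on Cy5 arrays, Cyp2d4 −0.079 with weights and −0.00043 with scaling, and, leaving out mice, Cyp2b3 from −0.14 to 0.38, Cyp4f6 from −0.050 to 0.19 and Cyp2d4 from −0.13 to 0.20. Members called lower in TN, 0 in the main analysis, numbered 1 with quantile normalization, scaling, the array-level fit or named genes alone, 2 with weights and 0 to 1 with a mouse left out; in HS there was 1 on Cy5 arrays. Features called for the letter, 1 in the main analysis, numbered 0 on Cy5 arrays and 1 to 2 with a mouse left out. Features called for the interaction, 0 in the main analysis, numbered 1 with scaling or weights and 0 to 1 with a mouse left out.

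Across arrays, as a description, r was 0.42 for both Cyb5a spots, 0.47 for Cyp2e1 spots 179 and 390 and 0.57 for spots 390 and 399, the last −0.18 with plain means. Without F241, an alternative added after seeing the data, r for the Cyb5a spots was 0.66. No paired analysis was possible because the replicate numbers only name mice.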
